A study of Arabidopsis thaliana with 2 samples.

Results

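The genes described here are 10 members of group IIc of the WRKY family of transcription factors in Arabidopsis thaliana: WRKY8, WRKY23, WRKY28, WRKY43, WRKY45, WRKY48, WRKY50, WRKY51, WRKY57 and WRKY75. They were taken by locus identifier from the 23147 genes listed in either of 2 RNA sequencing libraries, and all 10 were listed in both. One library came from rosettes of untreated wild type plants (WT, Col-0), the other from untreated plants of the pbl19/pPBL19C3A-GFP-HA line, both aged 28 days. That line is a pbl19 null mutant in the Col-0 background. It carries PBL19, a receptor-like cytoplasmic kinase, with the change written C3A (by the usual notation, cysteine at position 3 replaced by alanine), fused to GFP and HA tags under the PBL19 promoter, and is called C3A below. The mutation, the change, the tags and the transgene's level vary together in this comparison, and a line with the unchanged transgene was not analysed here. The labels do not say how many plants were pooled or whether the line is 1 insertion event. Each genotype has 1 library, so nothing was tested, the differences have no replicate check, and each is one between these libraries. WT and C3A below stand for these libraries.

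WRKY proteins bind DNA through a domain that begins with the conserved peptide for which they are named and ends in a zinc finger, and their usual target is the W box, whose core is TTGAC. Group II factors carry 1 such domain, and group IIc is the largest of its subgroups. In leaves several group IIc factors act in the exchange between salicylic acid and jasmonate signalling, others in phosphate supply, senescence, drought or organ development. Several are regulated after synthesis as well, by calcium-dependent protein kinases that phosphorylate them and by VQ proteins that bind their WRKY domain.

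The members differ in the DNA that encodes the signature peptide. The stretches below, each 21 bases (7 codons) on the coding strand from 5′ to 3′, are shown for all 10 because the codon in capitals separates WRKY50 and WRKY51 from the rest. They were read from the RefSeq TAIR10.1 genome, and the peptide's position was found in the longest annotated coding sequence.
WRKY51 (AT5G64810, chr5:25908864-25908884, plus strand, exon 2): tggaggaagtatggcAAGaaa
WRKY50 (AT5G26170, chr5:9147579-9147599, minus strand, exon 2): tggagaaagtatgggAAGaag
WRKY8 (AT5G46350, chr5:18802528-18802548, minus strand, exon 2): tggagaaagtatggcCAAaaa
WRKY28 (AT4G18170, chr4:10062149-10062169, plus strand, exon 2): tggagaaaatacggcCAAaag
WRKY48 (AT5G49520, chr5:20091645-20091665, plus strand, exon 2): tggagaaaatacggcCAAaaa
WRKY75 (AT5G13080, chr5:4150786-4150806, minus strand, exon 1): tggaggaaatatggcCAAaag
WRKY45 (AT3G01970, chr3:326932-326952, minus strand, exon 1): tggaggaagtacggcCAAaaa
WRKY57 (AT1G69310, chr1:26056595-26056615, minus strand, exon 2): tggcgtaaatatggaCAAaaa
WRKY23 (AT2G47260, chr2:19405776-19405796, minus strand, exon 2): tggcgaaaatatggtCAAaaa
WRKY43 (AT2G46130, chr2:18957356-18957376, plus strand, exon 1): tggagaaagtacggtCAGaaa
The codon in capitals encodes lysine in WRKY51 and WRKY50 and glutamine in the other 8. No member overlaps another annotated gene, and every member had whole-number counts in both libraries. The genes lie on all 5 chromosomes, and 5 of them on chromosome 5. Their coding sequences run from 330 bases in WRKY43 to 1200 bases in WRKY48.

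The plants were first checked by the targeted gene and by tissue markers. PBL19 was read at AT5G47070, a locus given this name from general knowledge, since RefSeq calls it only a protein kinase superfamily protein. It was at 6.68 FPKM (fragments scaled by gene length and by library total) in WT and 466 FPKM in C3A, from 163 and 11419 counts. This gene overlaps another on the opposite strand, and its value does not separate the transgene from the native locus. All 5 leaf markers were abundant in both libraries, with a summed level of 46154 FPKM (WT) and 28956 FPKM (C3A). The 5 root markers, genes such as IRT1 and PIN2, summed to 41.4 and 15.04 FPKM. Seed markers summed to 0.20 and 0.14 FPKM and flower markers to 0.45 and 0.46 FPKM, with SESA1, SESA3 and AP3 unlisted in both. The libraries held 11937705 and 12001808 estimated counts, so depth differed little.

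WRKY51 and WRKY50 had the highest levels of the members in C3A. Both are known to mediate the repression of jasmonate responses when salicylic acid signalling is active, and WRKY50 is known to bind the promoter of PR1. WRKY51 was at 1.79 FPKM in WT from 20 counts and at 73.3 FPKM in C3A from 823 counts. Its level was 40.96-fold higher in C3A, with a 95% counting interval of 26.3 to 67.4. WRKY50 was at 1.33 FPKM from 17 counts and at 17.5 FPKM from 226 counts, which is 13.2-fold higher (8.05 to 23.03). The intervals of these 2 ratios do not overlap, so the gap between the 2 genes is wider than counting error. On the scale used for counts of genes, the log2 ratio of FPKM + 1, WRKY51 stood at 4.74 and ranked at position 51 of the 19527 genes with at least 1 FPKM in either library. WRKY50 stood at 2.99, at position 202. All intervals in the text describe counting error alone; without molecular identifiers, reads are not independent molecules.

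WRKY8, WRKY28 and WRKY48 are grouped because calcium-dependent kinases are known to phosphorylate them in immune signalling. WRKY8, a factor known from defence against fungi and bacteria and from salt tolerance, was at 0.37 FPKM in WT from 6 counts and at 8.12 FPKM in C3A from 134 counts. This is 21.9-fold higher, with a wide counting interval of 9.82 to 60.9 because of the low wild type count. WRKY28, known to bind the promoter of the salicylic acid synthesis gene ICS1, was at 0.52 and 3.38 FPKM from 9 and 59 counts, 6.50-fold higher (3.20 to 14.9). WRKY48, a pathogen-induced factor that restrains basal resistance to Pseudomonas, was at 1 and 3.23 FPKM from 23 and 75 counts, 3.23-fold higher (2 to 5.40). All of the 3 were thus near or below 1 FPKM in WT and between 3.23 and 8.12 FPKM in C3A. The log2 ratios on the FPKM + 1 scale were 2.73 for WRKY8, 1.53 for WRKY28 and 1.08 for WRKY48. That of WRKY48 fell under 2-fold after each rescaling of the libraries, at 0.97 with the median ratio set to 1, 0.96 without the 100 most abundant genes and 0.99 with counts scaled by the trimmed mean of M values (TMM).

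WRKY75 and WRKY45 are small factors known to activate phosphate uptake genes when phosphate is scarce and to advance leaf senescence. They had almost the same level in WT and both were higher in C3A. WRKY75 was at 2.64 FPKM from 25 counts and at 11.7 FPKM from 112 counts, 4.45-fold higher (2.86 to 7.16). WRKY45 was at 2.65 FPKM from 43 counts and at 8.22 FPKM from 134 counts, 3.10-fold higher (2.19 to 4.48). The intervals of the 2 ratios overlap, so a gap between them was not resolved by these counts. Their log2 ratios on the FPKM + 1 scale were 1.81 and 1.34. Both genes are also known from roots. The log2 ratios of the root markers above were all below 0, 5 of 5, with a median of -1.16, and those of the 5 leaf markers were below 0 as well. The part of these markers in the result was not tested. In whole rosettes fewer cells of a type and less RNA per cell cannot be told apart.

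WRKY57, WRKY23 and WRKY43 were the members under 2-fold, and for WRKY43 the counts are too few to place the ratio. WRKY57, known from drought tolerance and from restraining jasmonate-induced senescence, was at 8.49 FPKM in WT and 9.77 FPKM in C3A from 128 and 144 counts. Its ratio was 1.15 with a counting interval of 0.90 to 1.47. WRKY23, an auxin-responsive factor of root development, was at 4.01 and 4.16 FPKM. These values rest on 92 and 96 counts, and their ratio was 1.04 (0.77 to 1.40). The log2 ratio of WRKY23 was 0.04 as deposited and -0.08, -0.09 and -0.08 after the 3 rescalings, so its sign depends on the scaling. WRKY43, a factor of seed germination, was at 0.97 and 0.70 FPKM from 7 and 5 counts. Its interval of 0.18 to 2.64 leaves room for a difference of 2-fold in either direction, which was not detectable at this depth.

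**Figure D1:**
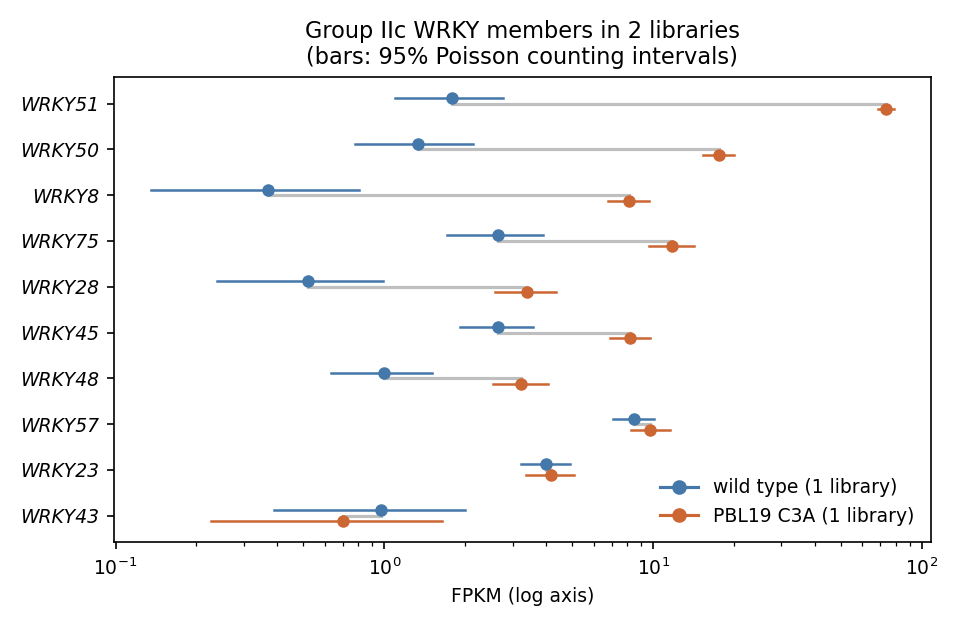
Level of each of the 10 group IIc members in FPKM on a log axis, with blue points for the wild type library, orange points for the C3A library and coloured bars for 95% Poisson counting intervals. WRKY51 spans the widest range of levels, from 1.79 to 73.3 FPKM, while the points of WRKY57, WRKY23 and WRKY43 lie close together.

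The order of the levels differed between the libraries. In the wild type WRKY57 was highest, with a Poisson interval of 7.08 to 10.1 FPKM above that of WRKY23 (3.23 to 4.92 FPKM). Below it came WRKY23, WRKY45, WRKY75, WRKY51, WRKY50, WRKY48, WRKY43, WRKY28 and WRKY8, and each neighbouring pair in that run had overlapping intervals. In the C3A library the order was WRKY51, WRKY50, WRKY75, WRKY57, WRKY45, WRKY8, WRKY23, WRKY28, WRKY48 and WRKY43. There the intervals were apart between WRKY51 and WRKY50, between WRKY50 and WRKY75, between WRKY8 and WRKY23, and between WRKY48 and WRKY43, and overlapped between the other neighbours. The summed level of the 10 members was 23.8 FPKM in WT and 140.2 FPKM in C3A. WRKY51 made up 7.53% of that sum in WT and 52.3% in C3A, while WRKY57 made up 35.7% and 6.97%.

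Of the 10 members, 9 had at least 1 FPKM in either library and 7 were at least 2-fold higher in C3A on the FPKM + 1 scale. None was at least 2-fold lower. Over all 19527 genes that reached 1 FPKM, 7.89% were at least 2-fold higher and 2.85% at least 2-fold lower. WRKY8 and WRKY28 reached 1 FPKM in C3A only, so they could enter the count only by being higher there. The members were also chosen with earlier results of these data known, so their share does not stand for the whole of group IIc. The median log2 ratio of the 9 was 1.53. Without the filter, the count was 7 of 10 and the median 1.43, while the median over all genes that reached 1 FPKM was 0.14. After each of the 3 rescalings 6 members were at least 2-fold higher, WRKY48 being the one that dropped out. Over all genes the split was 1541 higher and 557 lower as deposited, 1216 and 749 with the median ratio set to 1, 1196 and 773 without the 100 most abundant genes, and 1210 and 764 after TMM scaling.

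**Figure D2:**
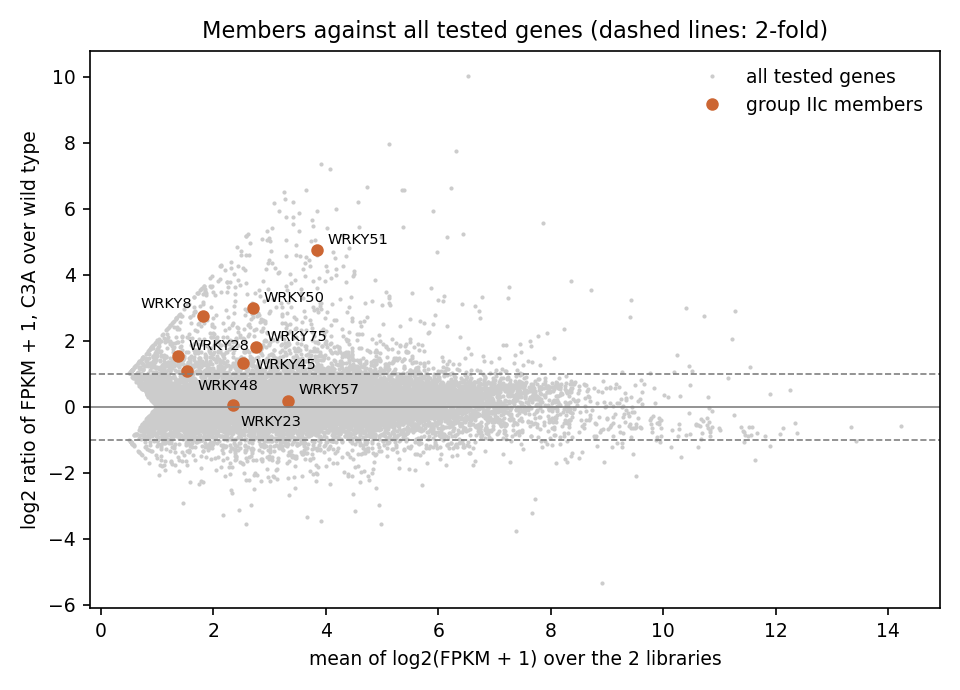
Log2 ratio of FPKM + 1 (C3A relative to WT) against the mean of log2(FPKM + 1) over both libraries for the 19527 tested genes in grey and the 9 tested group IIc members in orange, with dashed lines at 2-fold. WRKY51, at 4.74, lies farthest from 0 among the members, and WRKY57 and WRKY23 lie near 0.

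The other 8 group IIc factors were read in the same way. Of these, 7 were listed, 6 reached 1 FPKM, 2 were at least 2-fold higher and none was at least 2-fold lower. Both that were higher, WRKY59 and WRKY71, reached 1 FPKM in C3A only, as did WRKY12. Over all 18 group IIc genes, members included, 15 reached 1 FPKM and 9 of these were at least 2-fold higher. The median log2 ratio of those 15 was 1.34. WRKY59 was unlisted in WT and at 7.47 FPKM from 86 counts in C3A. Like WRKY50 and WRKY51 it has a lysine codon in the signature peptide, where the other 7 have one for glutamine. WRKY71, known from shoot branching and flowering, was at 0.30 and 2.62 FPKM from 4 and 35 counts, 8.73-fold higher (3.12 to 33.8). WRKY12, which acts on secondary walls of the stem, was at 0.58 and 2.13 FPKM from 7 and 26 counts, with a log2 ratio of 0.99 on the FPKM + 1 scale. WRKY13 was at 1.12 and 2.16 FPKM, WRKY24 at 1.62 and 2.28, and WRKY56 at 1.05 and 1.71 FPKM. WRKY49 was at 0.52 and 0.29 FPKM, and WRKY68 was unlisted in both. The 3 genes with a lysine codon, WRKY51, WRKY59 and WRKY50, thus had the 3 largest log2 ratios of group IIc on the FPKM + 1 scale (4.74, 3.08 and 2.99), followed by WRKY8 at 2.73. This grouping was seen after the values were known, and with a pseudocount of 0.1 FPKM WRKY8 (4.13) stood above WRKY50 (3.62). By plain FPKM ratio WRKY8 (21.9-fold) also stood above WRKY50 (13.2-fold), so the order depends on the pseudocount.

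Other WRKY groups gave different counts. Group III, to which the salicylic acid-linked factors WRKY70, WRKY46 and WRKY38 belong, had 10 of 10 genes that reached 1 FPKM past 2-fold and higher. The median of its log2 ratios was 2.07. WRKY38 was at 0.26 and 52.9 FPKM, WRKY62 at 0.16 and 20.6, WRKY46 at 0.99 and 35.6 and WRKY53, which overlaps a gene on the opposite strand, at 4.14 and 39.1 FPKM. Of the 10, 6 (WRKY30, WRKY38, WRKY46, WRKY55, WRKY62 and WRKY63) reached 1 FPKM in C3A only and so could be counted only as higher. Groups IIa and IIb had 4 of 11 genes past 2-fold and higher, and 0.69 as the median log2 ratio over all 11. Their largest ratio was that of WRKY18, at 2.48 and 88.0 FPKM and a log2 ratio of 4.68, close to the 4.74 of WRKY51. The others past 2-fold there were WRKY60 at 3.22 and 22.5 FPKM, WRKY47 at 4.13 and 18.9 FPKM, and WRKY40 at 7.85 and 17.5 FPKM. WRKY40 overlaps a gene on the opposite strand and was under 2-fold after each of the 3 rescalings, which left 3 of 11. In group I 3 of 11 were at least 2-fold higher, namely WRKY58 at 0.18 and 8.73 FPKM, WRKY25 at 7.13 and 35.2 FPKM and WRKY26 at 6.79 and 25.4 FPKM, with WRKY2 next at 4.13 and 7.25 FPKM. WRKY58 reached 1 FPKM in C3A only, and WRKY2 overlaps a gene on the opposite strand. In groups IId and IIe 1 of 13 was at least 2-fold higher, namely WRKY15 at 26.3 and 98.9 FPKM. That is 7.69%, near the 7.89% over all genes. WRKY29, which overlaps a gene on the opposite strand, was at 2.71 and 5.74 FPKM. WRKY11, known to act as a negative regulator of basal resistance, was at 71.7 and 42 FPKM, and WRKY35 was at 3.74 and 1.83 FPKM. No gene of these groups was at least 2-fold lower on this scale, and none of these differences between groups was tested.

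**Figure D3:**
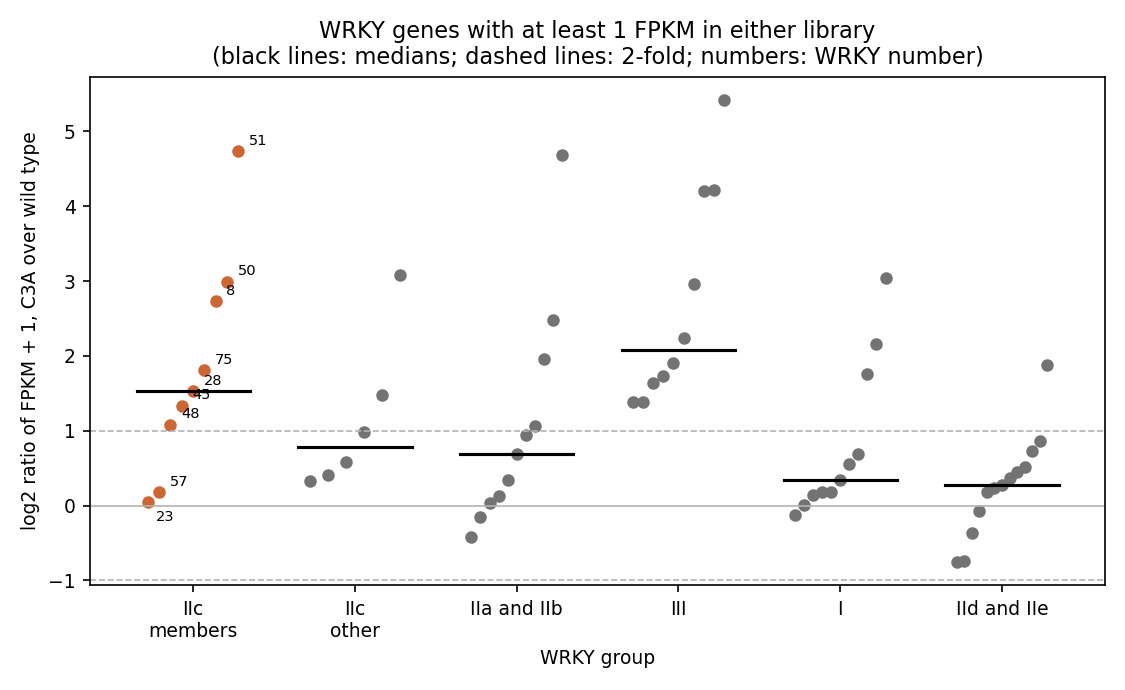
Log2 ratio of FPKM + 1 (C3A relative to WT) for each WRKY gene with at least 1 FPKM in either library, by group, with the group IIc members in orange and numbered, black lines at medians and dashed lines at 2-fold. The members range from 0.04 to 4.74, groups IIa and IIb from -0.42 to 4.68, group III from 1.38 to 5.42, group I from -0.13 to 3.04, and groups IId and IIe from -0.76 to 1.87.

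The region before each gene start was searched for the W-box core TTGAC and for TGACG, the core of the element bound by TGA factors, on both strands over 250 bases. The promoters of 2 pairs are printed because the pairs differ in their matches, WRKY51 and WRKY50 first, then WRKY45 and WRKY75. Sequences run 5′ to 3′ on the gene's strand up to the base before the RefSeq gene start (TAIR10.1), with matches to either motif in capitals. Positions count back from the gene start and give the first base of a match in this reading direction.
WRKY51 (chr5:25907997-25908246, plus strand): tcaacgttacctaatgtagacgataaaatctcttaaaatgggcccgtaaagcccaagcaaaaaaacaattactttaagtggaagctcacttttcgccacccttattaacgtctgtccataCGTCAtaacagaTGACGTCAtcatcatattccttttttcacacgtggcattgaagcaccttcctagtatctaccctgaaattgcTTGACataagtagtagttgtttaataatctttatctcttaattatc
WRKY50 (chr5:9148392-9148641, minus strand): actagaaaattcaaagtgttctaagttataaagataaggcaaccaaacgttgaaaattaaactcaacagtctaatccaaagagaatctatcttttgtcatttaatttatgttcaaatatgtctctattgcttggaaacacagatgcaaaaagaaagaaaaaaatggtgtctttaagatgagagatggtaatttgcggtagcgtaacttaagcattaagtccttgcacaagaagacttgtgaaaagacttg
WRKY45 (chr3:327413-327662, minus strand): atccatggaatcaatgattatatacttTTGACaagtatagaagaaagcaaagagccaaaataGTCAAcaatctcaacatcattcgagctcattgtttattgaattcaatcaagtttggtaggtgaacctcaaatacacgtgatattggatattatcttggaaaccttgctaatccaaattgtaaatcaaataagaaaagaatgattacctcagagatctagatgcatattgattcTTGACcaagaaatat
WRKY75 (chr5:4151202-4151451, minus strand): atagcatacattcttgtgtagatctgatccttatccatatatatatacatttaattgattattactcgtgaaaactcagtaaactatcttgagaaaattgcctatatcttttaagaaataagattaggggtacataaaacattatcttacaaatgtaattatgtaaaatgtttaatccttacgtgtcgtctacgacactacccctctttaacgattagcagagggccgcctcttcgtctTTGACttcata
The WRKY51 window holds 1 TTGAC, at position -46 from the gene start, and 3 matches to TGACG, at -130, -118 and -115. The last 2 of these overlap, since they are opposite strands of 1 palindrome. The WRKY50 window holds neither motif. Of all 27443 nuclear protein-coding promoters of this length, 18.6% hold at least 1 TGACG and 0.583% hold at least 3 matches.

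The WRKY45 window holds 3 matches to TTGAC, at -223, -188 and -15, and the WRKY75 window 1, at -11. At least 3 matches were found in 3.38% of all promoters. Over the members 5 of 10 windows hold TTGAC, which is 50%, against 44.9% of all promoters, a share near the background. The 5 are WRKY8, WRKY28, WRKY45, WRKY51 and WRKY75. TGACG was found in 2 of 10, WRKY51 and WRKY43. In no member did a TTGAC match overlap a TGACG match. A match is a run of letters in this window and is not a measured binding site.

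**Figure D4:**
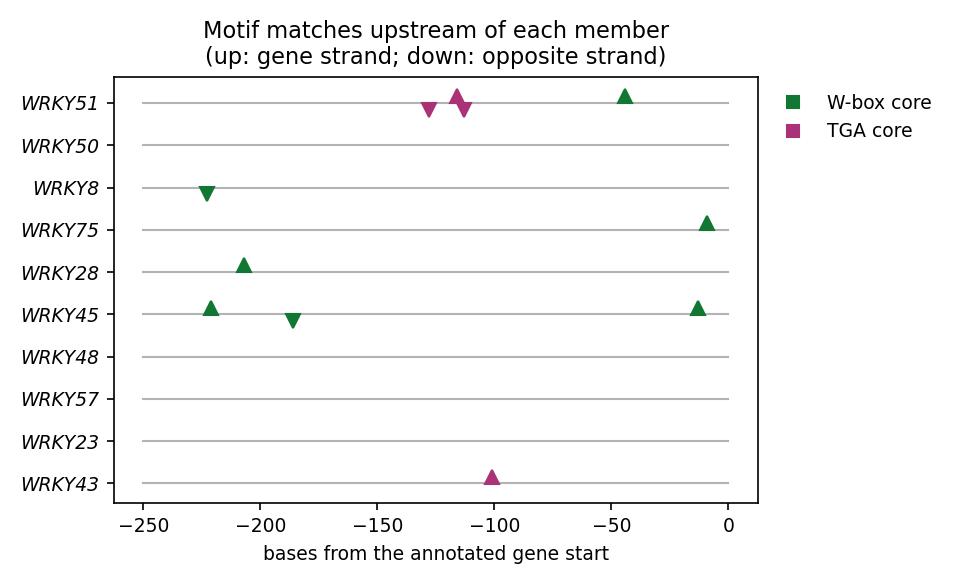
Positions of W-box core matches (green) and TGA core matches (purple) in the 250 bases before the annotated gene start of each member, with members ordered by log2 ratio from the highest at the top and upward triangles on the gene's strand. WRKY51 has 3 TGA core matches and WRKY45 has 3 W-box core matches, while WRKY50, WRKY48, WRKY57 and WRKY23 have none.

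The proteins known to act on these factors were next read. Of the 4 calcium-dependent kinases that phosphorylate WRKY8, WRKY28 and WRKY48, CPK4 was at 11.04 and 23.4 FPKM and CPK5 at 38.7 and 77.7 FPKM. CPK6 was at 14.8 and 20.6 FPKM and CPK11 at 7.66 and 9.26 FPKM. On the FPKM + 1 scale only CPK4 reached 2-fold, at 1.02, with CPK5 at 0.99, and none did after the 3 rescalings. The counts of CPK4 and CPK11 are fractional, and CPK4 overlaps a gene on the opposite strand. Among 5 VQ genes listed as partners of group IIc factors, 3 were at least 2-fold higher, beside 7.89% of all genes. JAV1, a repressor of jasmonate responses that binds WRKY51, was at 4.04 and 37.2 FPKM, 9.21-fold higher (7.02 to 12.3). AT1G78410, which RefSeq annotates as a VQ motif-containing protein without a symbol, was at 1.72 and 13.5 FPKM, 7.84-fold higher (4.78 to 13.6). VQ9, which binds WRKY8 and restrains it, was at 5.29 and 6.09 FPKM. SIB1, which binds WRKY57 and WRKY75, was at 24.9 and 94.7 FPKM, 3.81-fold higher (3.42 to 4.25). Its relative SIB2, which overlaps a gene on the opposite strand, was at 23.6 and 42.9 FPKM.

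Genes that other studies place downstream of the members went both ways. Of 19 such genes, 17 were listed, 16 reached 1 FPKM, 4 were at least 2-fold higher and 3 at least 2-fold lower, and the median log2 ratio was -0.04. Over all genes 7.89% were at least 2-fold higher and 2.85% at least 2-fold lower. ICS1, a reported target of WRKY28 and WRKY75, was at 5.85 and 67.97 FPKM. PR1, a reported target of WRKY50 and the usual marker of salicylic acid responses, was at 1.88 and 2986 FPKM. CAT2, a catalase gene that WRKY75 is reported to repress, was at 94.5 and 50.4 FPKM, and it overlaps a gene on the opposite strand. AOS, the jasmonate synthesis gene that the complex of JAV1 and WRKY51 is reported to repress, was at 99.6 and 29.6 FPKM, while PDF1.2, a defensin gene of jasmonate responses, was at 3.01 and 3.14 FPKM. JAZ4 and JAZ8, jasmonate repressor genes linked to WRKY57, were at 1.35 and 2.21 FPKM and at 0.11 FPKM and unlisted.

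Other reported targets were read gene by gene. Those of WRKY57 in drought, NCED3 of abscisic acid synthesis and the stress gene RD29A, were at 9.78 and 2.44 FPKM and at 614 and 65.4 FPKM. WRKY57 itself was at a ratio of 1.15. Of genes linked to WRKY8, the ethylene synthesis gene ACS6 was at 20.1 and 11.6 FPKM, the ethylene response factor ERF104 at 40.7 and 31.7 FPKM, and ABI4 was unlisted in both. The flavonoid genes linked to WRKY23, TT4 and TT7, were at 57.1 and 75.6 FPKM and at 2.76 and 2.44 FPKM, and TT4 overlaps a gene on the opposite strand.

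**Figure D5:**
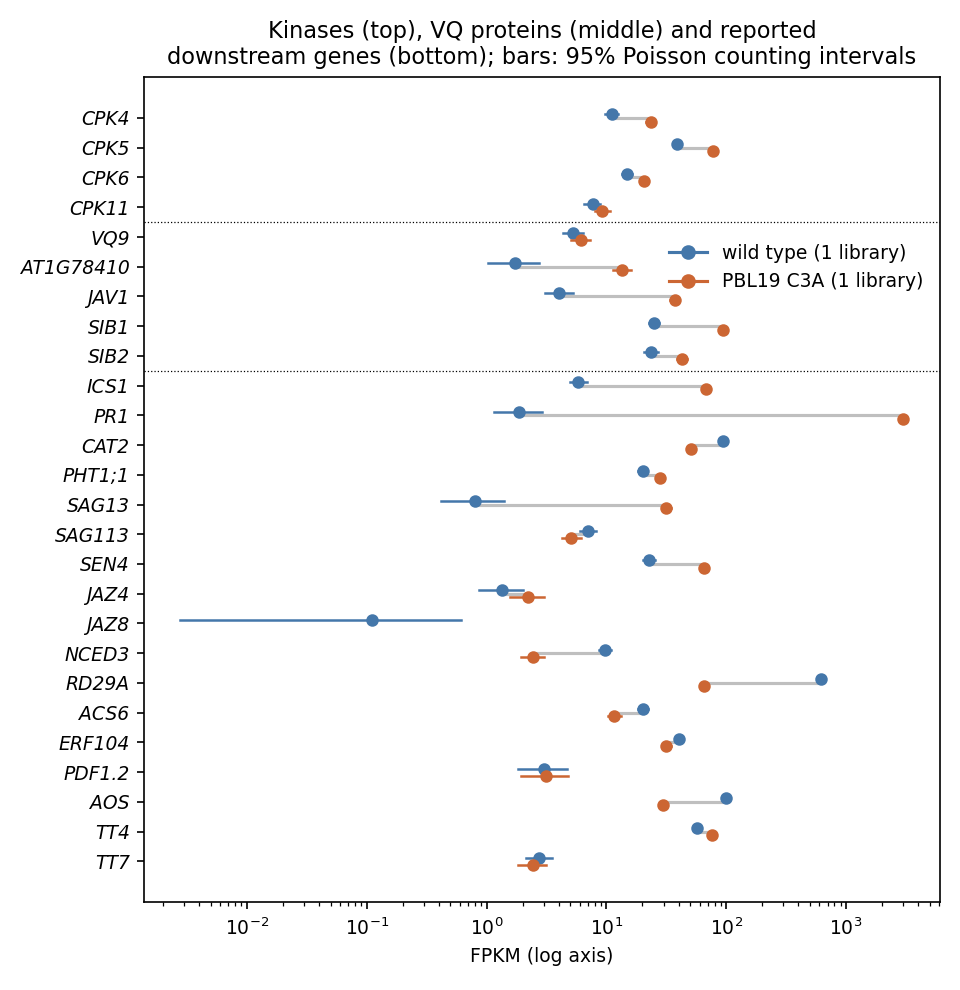
Levels in FPKM on a log axis of the calcium-dependent kinases, VQ proteins and reported downstream genes listed in at least 1 library, with blue points for the wild type, orange points for the C3A library and bars for 95% Poisson counting intervals. JAV1, AT1G78410, ICS1, PR1 and SAG13 are higher in C3A, and NCED3, RD29A and AOS are lower.

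Phosphate and senescence genes were read because WRKY75 and WRKY45 act on both. Of 11 phosphate starvation genes, 8 reached 1 FPKM, 1 was at least 2-fold higher and 1 at least 2-fold lower, with a median log2 ratio of 0.44. Each count is 1 gene, beside 7.89% of all genes higher and 2.85% lower. The transporter PHT1;1, a reported target of WRKY45 whose counts are fractional, was at 20.1 and 27.9 FPKM, and its relative PHT1;4 at 3.53 and 6.36 FPKM. The acid phosphatase gene PAP17 was at 9.05 and 20.4 FPKM and the phosphodiesterase gene GDPD1 at 8.93 and 18.9 FPKM. Both overlap genes on the opposite strand, and PAP17 was no longer past 2-fold after each rescaling. The ribonuclease gene RNS1 was at 1.73 and 0.22 FPKM from 23 and 3 counts. IPS1 and SPX3, commonly used markers of phosphate starvation, were low in both libraries, with IPS1 at 0.16 and 0.32 FPKM and SPX3 at 0.28 FPKM and unlisted. Not all genes of this list were low, with AT4 at 5.62 and 3.97 FPKM and SPX1 at 10.5 and 14.4 FPKM.

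Among 8 leaf senescence genes, 7 were listed and reached 1 FPKM, and 4 of these were past 2-fold in C3A, the median log2 ratio being 1.29. SAG12, SAG13, SAG113 and SEN4 are also in the list of downstream genes above, where SAG13 and SEN4 were counted as higher too. SAG13 was at 0.80 and 31.7 FPKM, SEN4 at 22.7 and 65.3 FPKM, and the NAC regulators ORE1 and NAP at 3.13 and 10.7 FPKM and at 5.77 and 15.6 FPKM. SAG12, the protease gene expressed late in senescence and a reported target of WRKY45, was unlisted in both libraries, and SAG113 was at 7.04 and 5.11 FPKM. Of 8 auxin genes around WRKY23, 7 reached 1 FPKM and 1 was at least 2-fold higher, GH3.3 at 0.74 and 4.67 FPKM with fractional counts. IAA14 and ARF19, which act upstream of WRKY23, were at 7.99 and 5.21 FPKM and at 5.93 and 3.78 FPKM, and IAA19 was at 4.11 and 3 FPKM. The median log2 ratio of this list was 0.04, beside 0.14 over all genes. The share at least 2-fold higher was 57.1% for the senescence list and 14.3%, 1 gene, for the auxin list, beside 7.89% over all genes.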

How the data were processed

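Rosette RNA was sequenced by BGI as paired-end reads, per the labels' protocols. The submitters' processing notes name Trimmomatic 0.36, HISAT and, as genome, TAIR10. The counting tool and its use of strand are not given in the sources used here. The deposited tables give, per the file headers, an expected (estimated) count, a gene length and an FPKM for each gene. The FPKM deposited by the authors was used as it stands. For the members it departs by up to 3.89% from count over length and total. The tables list 22310 wild type and 22564 C3A genes, all above 0, and unlisted genes were set to 0. The expected counts deposited by the authors were rounded for intervals and for TMM factors (edgeR 4.0.16, R 4.3.3).

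Differences are log2((C3A FPKM + 1)/(WT FPKM + 1)), with a pseudocount of 1 FPKM, for 19527 genes with at least 1 FPKM in either library. This scale understates ratios of low genes. A fold for a gene is its plain FPKM ratio with an exact (Clopper-Pearson) 95% interval from counts, and level intervals are exact Poisson ones. Folds against unlisted genes are left out. Gene names and sequences come from RefSeq TAIR10.1, which matched 22970 of 23147 identifiers. It gives no symbol for AT5G47070, taken here as PBL19, or AT1G78410, listed among the VQ genes, and both were chosen from general knowledge. Coordinates are on that build.

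The members and gene lists were chosen with earlier results of these data known. One root marker symbol (PEP) matched no single gene and was left out. The text names all members, the other group IIc genes, every kinase, VQ and downstream gene listed, and up to 4 genes of each other list by size of ratio. It also names IPS1, SPX3, AT4 and SPX1, chosen after their values were seen. Alternatives were the pseudocount, the filter, 3 rescalings and 1 gene length for both libraries. Scripts ran in python 3.11.15 with scipy 1.17.1, pandas 2.3.3, matplotlib 3.10.9 and numpy 2.4.6, and the ratio step was tested on simulated data.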

Additional observations from a re-analysis of the deposited data

How the results depend on the processing

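The count of members at least 2-fold higher stayed at 6 or 7 under the alternatives for pseudocount, scaling and gene length and without a filter. With a minimum of 5 FPKM it was 5 of the 6 members tested. Those 5 reached 5 FPKM in C3A only, so they could be counted only as higher. No member was at least 2-fold lower under any of these. The member median of the log2 ratio, 1.53 as reported, was 2.11 with a pseudocount of 0.1 FPKM, since low wild type values weigh more. Over members with at least 5 FPKM it was 2.27, a filter that kept 5 of its 6 members through C3A alone. With the pseudocount of 0.1 FPKM the number of all genes at least 2-fold lower was 911 against 557. The background median over all genes, 0.14 as deposited, was -0.0022 after rescaling without the 100 most abundant genes. WRKY51 ranged from 4.57 to 5.28, WRKY50 from 2.84 to 3.62, WRKY8 from 2.59 to 4.13, WRKY75 from 1.66 to 2.11 and WRKY45 from 1.19 to 1.60 on the log2 scale over all alternatives. Wild type counts of 6 for WRKY8, 9 for WRKY28 and 7 for WRKY43 limit the precision of those ratios. No paired analysis was possible because each genotype has 1 library.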

Other observations

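The WRKY domain was compared between the 18 group IIc genes over the 156 coding bases from the signature peptide to the last zinc-binding histidine, a length that all 18 share. WRKY8 and WRKY28 were 85.3% identical there, WRKY28 and WRKY71 84.0% and WRKY8 and WRKY48 78.2%, and all 4 genes were at least 2-fold higher in the C3A library as deposited. WRKY8 and WRKY71 were 82.1% identical, and no gene that was not higher reached that identity with WRKY8, WRKY28 or WRKY71. This 82.1% is the lowest identity among these 3 genes and was taken as the mark after the values were known. All 3 reached 1 FPKM in C3A only, so they could be counted only as higher. The lower identities of WRKY48 were matched in part by genes that were not higher. WRKY48 and WRKY68, unlisted in both libraries, were also 78.2% identical. WRKY23, at a ratio of 1.04, was 77.6% identical to WRKY28 and 76.9% to both WRKY8 and WRKY48, more than the 74.4% between WRKY28 and WRKY48. WRKY23 and WRKY68 were 84.6% identical to each other, and WRKY75 and WRKY45, both higher, 76.3%. The genes with a lysine codon were only in part closest to one another by this measure. WRKY51 was closest to WRKY50, and WRKY59 was closest to WRKY51, but WRKY50 was closest to WRKY13. WRKY50 was 66.7% identical to WRKY51, the same as to WRKY28 and below its 67.3% with WRKY13, and WRKY51 shared more with WRKY8 (65.4%) than with WRKY59 (62.8%). WRKY24 and WRKY56 were 92.3% and WRKY43 and WRKY56 77.6% identical, and none of these 3 was at least 2-fold higher. Related genes are not independent of each other, and this is a description without a test.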
